A study of Mus musculus with 72 samples.

Results

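Levels of poly(A)-selected mRNA were compared between the membrane and the cytosolic fraction of mouse embryonic stem cells (mESCs, line E14TG2a), using 32 of the 72 libraries of the series, 16 from each fraction. The libraries were chosen by fraction, replicate and labeling time, with both fractions of a culture as a pair, and each of the 16 cultures is a labeling time of a replicate. The labels name no genetic change in the line, and all cells had been given 4-thiouridine (4sU), a uridine analog that marks new RNA, and no unlabeled culture was analysed here. Labeling lasted 15, 20 or 30 min in replicates 1 and 2. It lasted 20, 40 or 60 min in replicates 3 and 4, while replicates 5 and 6 had 60 and 120 min. The labels give 500 µM 4sU for the times under 60 min and 100 µM for 60 and 120 min, whereas the study's methods give 500 µM for most of the 60 min replicates without naming them, so the dose of these cultures is uncertain. The methods list fewer 120 min replicates than the labels, and the 120 min libraries of replicates 3 and 4, 2 per fraction, were left out. With them 2041 genes were membrane-enriched and 263 lower in membrane, as these calls are defined below. Replicates 1 to 4 share the 20 min time and replicates 3 to 6 the 60 min time, while the other times and doses go with the replicate pair. The fractions came from sequential extraction of the same cells in the presence of cycloheximide, with digitonin releasing the cytosol and NP-40 then releasing membranes, and the nuclei remaining in the pellet.

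Most proteins that enter the secretory pathway are made by ribosomes bound to the endoplasmic reticulum (ER). A hydrophobic signal sequence or transmembrane segment is bound by the signal recognition particle as it leaves the ribosome, the complex docks at its receptor on the ER, and the nascent chain passes into the Sec61 translocon. Proteins of the nucleus and the cytosol, most mitochondrial proteins and tail-anchored proteins, whose membrane segment leaves the ribosome only after translation ends, are generally made on free ribosomes. Cycloheximide holds ribosomes on the mRNA, so that an mRNA translated at the ER is recovered with the membranes.

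Values are given in CPM, the reads of a gene scaled to a fixed total of reads on genes in each library, so each is a share of its library, and more RNA of a gene cannot be told apart from less RNA of the other genes in that fraction. Nor can fewer cells of a type be told apart from less RNA per cell in bulk libraries. The membrane libraries held 18934375 to 37447227 reads on genes and the cytosolic ones 19572053 to 30613392. A gene is called membrane-enriched, or lower in membrane, where edgeR's paired quasi-likelihood test gave an adjusted p under 0.05. The log2 fold change over the 16 pairs had also to be at least 1 or at most -1. Errors of log2 fold changes are standard errors derived from this test. They treat the 16 pairs as independent although these come from 6 replicates, so they do not measure the spread between replicates. Of 10659 genes with a mean of at least 5 CPM in either fraction, 2030 (19%) were membrane-enriched and 325 (3.05%) were lower in membrane, while 9883 (92.7%) had an adjusted p under 0.05 at any fold. By this adjusted p, 2447 genes were higher and 7436 lower in membrane, and the counts of list members at an unadjusted p below are to be read beside these. The median log2 fold change over the 10659 genes was -0.53. With TMM scaling, an edgeR factor that moved this median to -0.12, 11 of the 325 remained lower in membrane, and 15 by DESeq2, so most calls of lower in membrane below hold on the CPM scale only. Of the 2030 membrane-enriched genes, 2017 were higher in membrane in 16 of 16 cultures, and 1877 had a log2 fold change of at least 1 within each of the 3 replicate pairs. They held on average 34.3% of the reads of a membrane library and 3.16% of those of a cytosolic library. The 12 embryonic stem cell markers summed to 6795 to 10125 CPM in membrane and 7526 to 8907 CPM in cytosol, and 18 markers of other cell types to 21.4 to 33.8 and 21.3 to 29.7 CPM. Among the latter Dcn and Col3a1 were at 0 in 30 and 29 of the 32 libraries. Pax6, Thy1, Sox1 and Neurod1 were found in all, with up to 20.4, 17.1, 10.3 and 9.84 CPM. In cytosol Pax6 had 14.3 to 20.4 CPM in replicates 3 and 4 and 2.55 to 5.11 CPM in the other replicates. Mitochondrially encoded RNA made up 4.82 to 16.5% of the counts of the membrane libraries and 0.0313 to 0.254% of those of the cytosolic libraries. The 40 min culture of replicate 4 stood apart in several lists, with a median log2 ratio of 0.10 for ribosomal protein genes against -0.75 and -0.95 in the other cultures of that replicate, and of -0.87 for zinc finger genes against -0.34 and -0.24. Without it 2024 genes were membrane-enriched and 346 were lower in membrane. The part of mitochondrial RNA in the other genes' shares was not tested beyond the scaling without these genes, under which 2115 genes were membrane-enriched and 56 were lower.

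The genes whose proteins mark the fractions on blots were the first check of the labels. Bcap31, which encodes an ER membrane protein, ranged over 328 to 565 CPM in membrane (median 446) and 10.1 to 23.8 CPM in cytosol (median 20.0). The ranges did not overlap, and the mean was 24.7-fold higher in membrane (log2 fold change 4.68 ± 0.097 SE, adjusted p = 5e-20). Gapdh, a cytosolic glycolytic enzyme, ranged over 1097 to 2547 CPM in membrane (median 1647) and 2827 to 3597 CPM in cytosol (median 3228). Here every membrane library lay below every cytosolic library (log2 fold change -0.92 ± 0.079 SE, adjusted p = 8.6e-10), but the change stayed short of the limit of -1. Relative to the median gene the Gapdh value is -0.39. The mRNAs for lamin A/C (Lmna), a nuclear protein, and the ribosomal protein S6 (Rps6) had log2 fold changes of -0.31 ± 0.10 and -0.76 ± 0.055.

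Genes of the ER itself were examined first. Of the tested components of the translocon and its partners, 24 of 24 were membrane-enriched, with a median log2 fold change of 3.11, from 2.00 for Ssr4, a subunit of the translocon-associated protein complex, to 4.52 for Rpn1, a subunit of the oligosaccharyltransferase. Among chaperones and folding enzymes of the ER lumen 29 of 29 were, with a median of 3.89. Hspa5, the main ER chaperone (BiP), ranged over 1187 to 2838 CPM in membrane (median 2097) and 29.5 to 96.7 CPM in cytosol (median 79.9). No culture came near overlap between the fractions, and the means differed 29.1-fold (log2 fold change 4.92 ± 0.079 SE, adjusted p = 1.6e-21). Pdia3, a disulfide isomerase of the ER, ranged over 1093 to 2504 CPM in membrane (median 1689) and 20.7 to 63.4 CPM in cytosol (median 56.1). It stood higher still, at 37.5-fold (log2 fold change 5.29 ± 0.099 SE, adjusted p = 1.3e-20), the highest value among the ER lumen genes, and Fkbp10, a collagen-folding isomerase, had the lowest (2.15 ± 0.066).

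Secreted proteins followed the same direction. Of the tested ligands and their binding proteins 19 of 19 were membrane-enriched (median 2.94), as were 22 of 22 matrix genes (median 3.77). Igfbp2, a secreted binding protein of insulin-like growth factors, ranged over 481 to 1259.8 CPM in membrane (median 975) and 18.95 to 49.1 CPM in cytosol (median 39.9). The groups did not overlap (log2 fold change 4.64 ± 0.074 SE, adjusted p = 1.5e-21). Apoe, the secreted lipid carrier, varied widely between cultures, over 364 to 2737 CPM in membrane (median 1565) and 6.69 to 77.9 CPM in cytosol (median 46.6), and yet the ratio varied little between replicate pairs, with log2 fold changes of 5.08 in replicates 1 and 2, 5.48 in replicates 3 and 4 and 5.14 in replicates 5 and 6. Fgf4 and Tdgf1, a growth factor and a Nodal co-receptor made by mESCs, had values of 2.75 ± 0.084 and 2.91 ± 0.086. The lowest members were Vegfa among the ligands (1.05 ± 0.15) and Lama5, a laminin chain, among the matrix genes (1.54 ± 0.18). Both differed between replicate pairs. Vegfa had log2 fold changes of 0.51 in replicates 1 and 2, 1.76 in replicates 3 and 4 and 0.81 in replicates 5 and 6, and Lama5 of 0.85 in replicates 1 and 2, 2.16 in replicates 3 and 4 and 1.74 in replicates 5 and 6.

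Cell-surface proteins with a transmembrane segment or a lipid anchor in the outer leaflet were nearly uniform. Of the receptors, 35 of 37 were membrane-enriched (median 2.87), with Igf2r, which sorts lysosomal enzymes, the highest at 4.22 ± 0.11. Of the adhesion molecules and tetraspanins, 37 of 38 were (median 3.87). Cd9, a tetraspanin, ranged over 563 to 986 CPM in membrane (median 793) and 15.3 to 37.5 CPM in cytosol (median 29.2), with no overlap (log2 fold change 4.87 ± 0.073 SE, adjusted p = 7.3e-22). In the list of GPI-anchored proteins, which does not hold Cd24a, 17 of 17 were, between 1.73 for Cd59a and 4.97 for the glypican Gpc3. Solute carriers of the surface and the endomembranes were membrane-enriched in 39 of 39 cases (median 3.19), led by the glucose transporter Slc2a1, which ranged over 390.3 to 945 CPM in membrane (median 591) and 11.9 to 54.9 CPM in cytosol (median 28.8), with a log2 fold change of 4.51 ± 0.10 (adjusted p = 1.1e-19).

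Organelles downstream of the ER gave similar values. Of the lysosomal genes, 31 of 31 were membrane-enriched (median 3.49), from 1.40 for the galactosidase Glb1 to 5.13 for cathepsin L (Ctsl). The counts were 31 of 32 for the Golgi (median 3.06), 18 of 18 for membrane enzymes and regulators of cholesterol synthesis (median 3.25) and 20 of 21 for subunits of ion pumps and of the vacuolar ATPase (median 2.94). For proteins of the nuclear envelope, which is continuous with the ER, the count was 12 of 15 (median 2.59), led by Tmem43 at 3.63 ± 0.13. Over all of these lists of secretory and membrane proteins, 342 genes passed the filter on low values, 334 of them (97.7%) were membrane-enriched against 19% of all genes tested, and none was called lower in membrane by edgeR. Golph3 and Tmpo were lower at an unadjusted p under 0.05, and none was called lower by DESeq2. With TMM scaling and by DESeq2, 338 of the 342 were membrane-enriched. The filter takes a mean of 5 CPM in either fraction, so a gene low in cytosol could pass it through its membrane level alone. The lists have 373 genes in the files, and those under 5 CPM in both fractions are not in these shares. The same filter applies to the other lists and classes, and its effect on the shares was not tested.

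**Figure D1:**
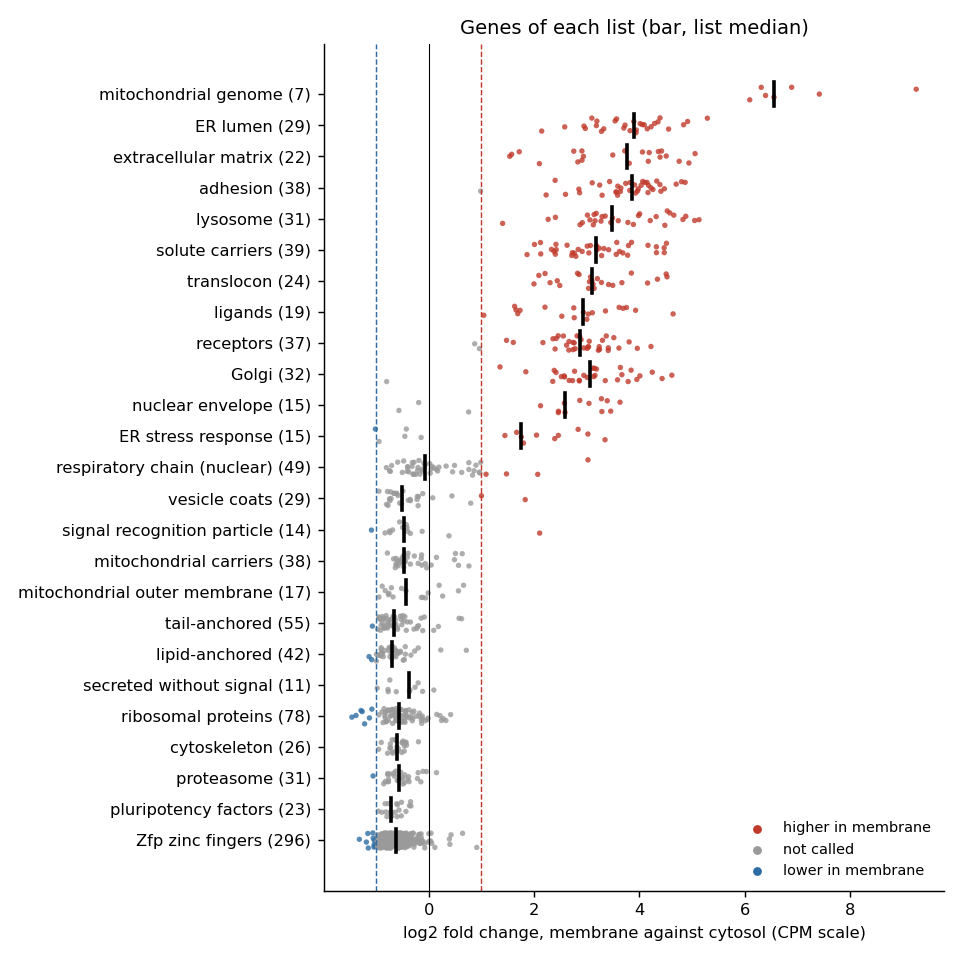
Log2 fold change between membrane and cytosol (CPM scale, edgeR) of the tested genes of 25 lists, with the number of genes in brackets. Each point is a gene, red where membrane-enriched, blue where lower in membrane and grey where not called, black bars are list medians and dashed lines mark the limits of 1 and -1. ER lumen genes have a median of 3.89 and tail-anchored genes a median of -0.66.

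The 8 secretory-list genes that were not called were of 2 kinds. Lrp1, Fgfr4, Cd24a and Tor1aip2 were higher in membrane in 16 of 16 cultures but under the limit of 1. Lrp1, a very large endocytic receptor of 4545 residues, had a log2 fold change of 0.87 ± 0.11 (adjusted p = 3.4e-07), and 0.57 in replicates 1 and 2, 1.29 in replicates 3 and 4 and 0.77 in replicates 5 and 6. Cd24a, a GPI-anchored sialoprotein with a precursor of 76 residues, missed the limit narrowly, at 0.99 ± 0.05. The values were 0.96 ± 0.10 for Fgfr4, an FGF receptor, and 0.76 ± 0.058 for Tor1aip2, an activator of torsin ATPases. With TMM scaling and by DESeq2 these 4 passed the limit.

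The other 4 lay below 0. Golph3, a peripheral protein that binds a Golgi phospholipid and has no membrane segment, ranged over 41.4 to 79.4 CPM in membrane (median 65.3) and 78.3 to 132 CPM in cytosol (median 114). It was lower in membrane in 16 of 16 cultures (log2 fold change -0.80 ± 0.059 SE, adjusted p = 6e-11). Atp6v0d1, a peripheral subunit of the otherwise membrane-embedded sector of the vacuolar ATPase, ranged over 67.0 to 125 CPM in membrane (median 80.0) and 79.0 to 111 CPM in cytosol (median 89.1), and these ranges overlapped (log2 fold change -0.09 ± 0.054 SE, adjusted p = 0.12). Tmpo, whose isoforms include forms of lamina-associated polypeptide with and without a transmembrane segment, had a value of -0.56 ± 0.053. Syne2, a giant nesprin of 6874 residues held in the nuclear envelope by its C-terminus, had a value of -0.19 ± 0.10 and was higher in membrane in 4 of 16 cultures.

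The gene lists were chosen by name, with earlier results of these data known. The coding sequence was therefore used as a second description, which does not draw on the lists. It covers the same genes and fold changes, so it is no separate evidence. Proteins were translated from the coding sequence of a principal GENCODE transcript per gene (GRCm38) and scored with the Kyte-Doolittle hydropathy scale. An N-terminal stretch is the best window of 11 residues in the first 35, with a mean hydropathy of at least 2, as found in signal sequences. A segment is a window of 19 residues with a mean of at least 1.6, about the length that spans a membrane. Of 10257 protein-coding genes tested with such a protein, 6792 had neither, and 80 of these (1.18%) were membrane-enriched, with a median log2 fold change of -0.63. With an N-terminal stretch and no segment, as in a soluble secreted protein, 425 of 616 (69.0%) were membrane-enriched (median 2.34). With 3 or more segments the count was 679 of 807 (84.1%, median 2.48), and with 6 or more segments 332 of 360 (92.2%). The class with 1 or 2 segments was mixed, with 791 of 1890 (41.9%, median 0.11) membrane-enriched. Those that also had an N-terminal stretch were membrane-enriched in 513 of 594 (86.4%), and those without in 278 of 1296 (21.5%). The share of this class depends on the limit. With segments scored at 1.8 in place of 1.6 it was 793 of 1315 (60.3%, median 1.87), and the split by N-terminal stretch was not repeated. Conversely, of 1994 membrane-enriched protein-coding genes, 34.1% had 3 or more segments, 39.7% had 1 or 2, 21.3% had an N-terminal stretch and no segment, 0.953% had a lone segment at the C-terminus and 4.01% had none of these features.

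**Figure D2:**
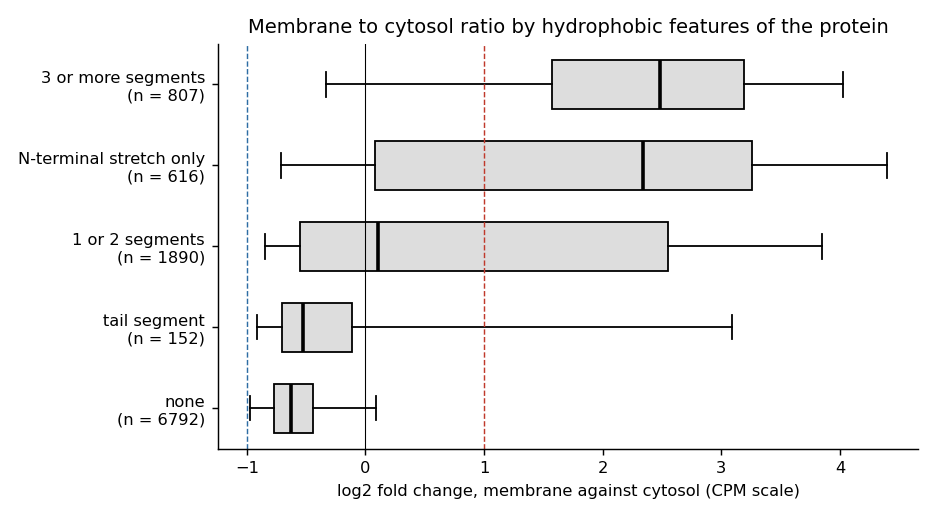
Log2 fold change between membrane and cytosol (CPM scale) of protein-coding genes by hydrophobic features of the protein. Boxes span the quartiles with the median as a line, whiskers run from the 5th to the 95th percentile, and dashed lines mark the limits of 1 and -1. The median is 2.48 for proteins with 3 or more segments and -0.63 for those with none.

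The share of membrane-enriched genes changed steeply with the hydropathy of the N-terminus. Among proteins without a segment, it was between 0.903% and 1.01% in the 4 intervals of N-terminal hydropathy below 1.5, 3.29% (20 of 607) from 1.5 to 2, 46.4% (140 of 302) from 2 to 2.5 and 90.7% (204 of 225) from 2.5 to 3. The median log2 fold change was -0.57, 0.43 and 2.94 in the last 3 of these intervals. From 2 to 2.5 the quartiles ran from -0.50 to 2.81, so that this interval held genes of both kinds.

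**Figure D3:**
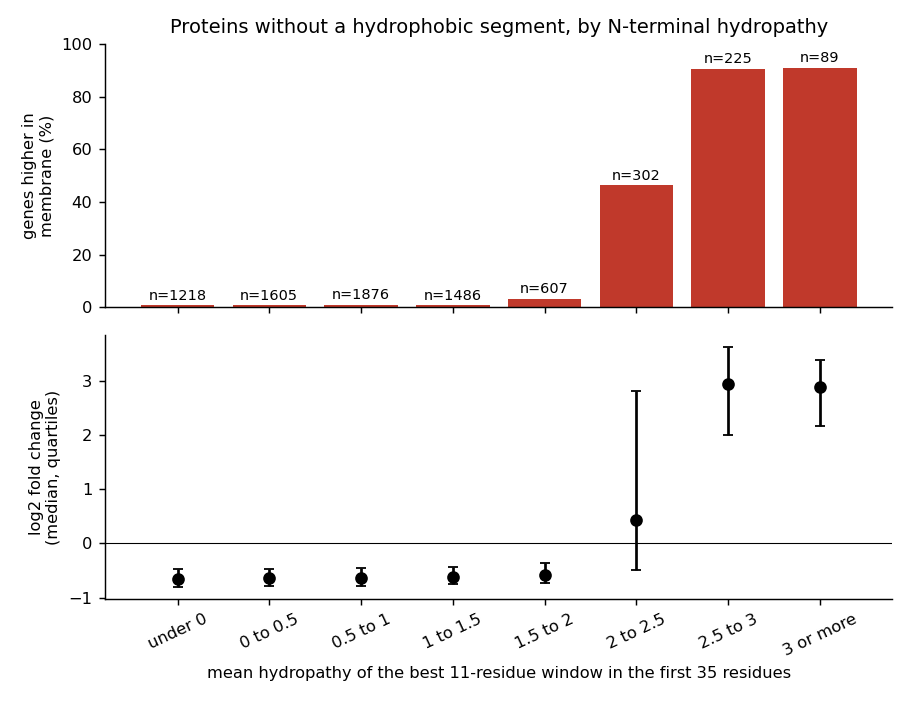
Protein-coding genes without a hydrophobic segment, grouped by the mean hydropathy of the best window of 11 residues among the first 35. Upper panel, percent of genes that were membrane-enriched, with the number of genes above each bar. Lower panel, median log2 fold change with quartiles. The percent is at most 3.29 below a hydropathy of 2 and at least 90.7 from 2.5.

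The coding DNA of these windows shows what the score reads. Codons with T as the middle base encode phenylalanine, leucine, isoleucine, methionine or valine, which are strongly hydrophobic, and that T is given in capitals below. The best N-terminal window is shown, 5′ to 3′ on the coding strand (GRCm38, GENCODE transcripts), for 4 genes of the secretory pathway that were membrane-enriched, namely Pdia3, Apoe, Igfbp2 and Hspa5.
Pdia3 (chr2:121414054-121414086, plus strand, exon 1, codons 6 to 16): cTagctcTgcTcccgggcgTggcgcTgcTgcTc
Apoe (chr7:19698192-19698224, minus strand, exon 2, codons 3 to 13): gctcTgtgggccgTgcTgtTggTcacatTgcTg
Igfbp2 (chr1:72824613-72824645, plus strand, exon 1, codons 12 to 22): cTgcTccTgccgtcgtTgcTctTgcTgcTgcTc
Hspa5 (chr2:34772331-34772363, plus strand, exon 2, codons 4 to 14): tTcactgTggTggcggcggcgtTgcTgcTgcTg
These windows hold T as the middle base in 7, 7, 9 and 7 of 11 codons, with mean hydropathies of 2.60, 2.67, 2.89 and 2.83. The median was 7 of 11 codons over the 1203 membrane-enriched genes with an N-terminal stretch, and 4 of 11 over all 10257 protein-coding genes. The same window of Gapdh, whose mRNA was not membrane-enriched, is shown for contrast.
Gapdh (chr6:125163367-125163399, minus strand, exon 3, codons 21 to 31): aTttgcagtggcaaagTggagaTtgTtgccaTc
It holds 5 such codons, with a hydropathy of 1.6. Of the genes with an N-terminal stretch, 289 were not membrane-enriched, and their windows also had a median of 7 such codons but a lower median hydropathy, 2.24 against 2.60 in the membrane-enriched ones. Acp1, a cytosolic phosphatase, is an example with a stretch of hydropathy 2.15 at its catalytic loop near the N-terminus, split by an intron.
Acp1 (chr12:30905132-30911511, minus strand, exons 1 and 2, codons 8 to 18): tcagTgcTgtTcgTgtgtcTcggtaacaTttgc
Its mRNA was lower in membrane (log2 fold change -1.07 ± 0.048 SE, adjusted p = 1.4e-14).

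Proteins with many segments also had exceptions, and the share of these differed with length. Among proteins with 3 or more segments, 92.3% of 326 of over 400 to 800 residues were membrane-enriched, 75.6% of 135 of over 800 to 1600 residues and 33.3% of 66 longer ones. Longer proteins have more windows in which the limit can be reached, and the part of this in the difference was not tested. Genes of this kind, named after their values were seen, included Htt (8 segments in 3120 residues, -0.51 ± 0.14), huntingtin, and Mdn1 (-0.72 ± 0.17), a ribosome assembly factor, both soluble proteins. With the limit at 1.8 in place of 1.6, 616 genes had 3 or more segments and 91.7% of them were membrane-enriched. Ghitm, a multispanning protein of the mitochondrial inner membrane, was the lone gene with 3 or more segments that was called lower in membrane. It ranged over 146 to 271 CPM in membrane (median 222) and 332 to 544 CPM in cytosol (median 433), with a log2 fold change of -1.01 ± 0.045 (adjusted p = 9.3e-15).

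Tail-anchored proteins carry a single segment at the C-terminus, which reaches the membrane after translation. None of 55 tested tail-anchored genes was membrane-enriched by edgeR or DESeq2, and 1 was with TMM scaling. By edgeR 1 gene, Serp1, was lower in membrane, but 0 were by DESeq2 or with TMM scaling. The 3 that were higher in membrane at an unadjusted p under 0.05 were Fdft1 (0.63 ± 0.046), the squalene synthase of the ER, Tomm7 (0.58 ± 0.067), a subunit of the mitochondrial import pore, and Sec61b (0.19 ± 0.08). The list's median log2 fold change of -0.66 compares with -0.53 over all genes and 3.11 for the translocon list. A pair of ER proteins is shown because their partners in the translocon list lie at the other end of the scale. Sec61b, the tail-anchored subunit of the translocon, ranged over 72.0 to 162 CPM in membrane (median 110.1) and 88.8 to 120.0 CPM in cytosol (median 98.3), and the ranges overlapped. Serp1, a small tail-anchored protein linked to the translocon, ranged over 97.6 to 131 CPM in membrane (median 113) and 203 to 267 CPM in cytosol (median 247), with every membrane library below every cytosolic one (log2 fold change -1.07 ± 0.053 SE, adjusted p = 8.6e-14). Their segments are given as coding DNA, followed by the first counted segment of several in the tetraspanin Cd9 and in the glucose transporter Slc2a1. Both of the latter have an N-terminal stretch, and windows that start there were not counted as segments. That of Serp1 is split by an intron.
Sec61b (chr4:47482982-47483038, plus strand, exon 4, codons 71 to 89): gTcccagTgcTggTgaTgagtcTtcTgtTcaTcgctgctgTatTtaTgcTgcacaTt
Serp1 (chr3:58523852-58525122, minus strand, exons 2 and 3, codons 41 to 59): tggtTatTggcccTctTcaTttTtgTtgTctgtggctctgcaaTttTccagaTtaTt
Cd9 (chr6:125464429-125464485, minus strand, exon 3, codons 58 to 76): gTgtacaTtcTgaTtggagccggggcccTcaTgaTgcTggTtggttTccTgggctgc
Slc2a1 (chr4:119132213-119132269, plus strand, exon 3, codons 69 to 87): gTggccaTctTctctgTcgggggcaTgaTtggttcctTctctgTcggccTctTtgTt
The segments of Sec61b and Serp1 had 14 and 12 of 19 codons with T as the middle base and hydropathies of 2.55 and 2.46. Those shown for Cd9 and Slc2a1 had 11 of 19 codons each and hydropathies of 2.23 and 1.98. The most hydrophobic windows of 19 residues in Cd9 and Slc2a1 reached 2.81 and 2.68. In Sec61b the segment starts at residue 71 of 96, and in Serp1 at residue 41 of 66.

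By sequence alone, and at the main hydropathy limit for segments, genes with a lone segment near the C-terminus had shares close to those with one elsewhere. Of 152 proteins with a lone segment that starts in the last 50 residues and no N-terminal stretch, 19 (12.5%) were membrane-enriched. Proteins with a lone segment elsewhere and no N-terminal stretch were grouped by the residues remaining from the start of the segment. The share was 14.2% at over 50 to 100 residues, 15.7% at over 100 to 200 and 17.5% at more than 200. At this limit the classes lay close to each other and below the 19% of all genes. With segments scored at 1.8, however, 29 of 137 proteins with such a C-terminal segment (21.2%) were membrane-enriched, which is above the 19%. The shares for a segment elsewhere were not repeated at 1.8, so the classes cannot be compared there. Several of the 19 membrane-enriched genes among the 152 are known to carry a signal sequence. Prnp, Tmed9 and Lman1, named after their values were seen, had N-terminal hydropathies just under the limit of 2 and log2 fold changes of 3.51 ± 0.11, 4.25 ± 0.10 and 3.67 ± 0.084.

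Other groups reach membranes or the outside of the cell without the translocon. Lipid-anchored proteins of the inner leaflet, such as Ras, Rab and G protein subunits, had no membrane-enriched gene by edgeR among 42 and 1 by DESeq2, and 2 were lower in membrane, Arf3 (-1.13 ± 0.11) and Rab18 (-1.08 ± 0.055), neither of them by DESeq2 or with TMM scaling. Gnai2, a G protein alpha subunit, was the highest at 0.72 ± 0.081, and was the lone member higher in membrane at an unadjusted p under 0.05, while the list's median was -0.70. Proteins secreted without a signal sequence numbered 11, with none called by edgeR or DESeq2 and 9 lower in membrane at an unadjusted p under 0.05, between -0.98 for Hmgb1 and 0.10 for the cytokine Mif, whose ranges overlapped (adjusted p = 0.24). Of all 10659 genes, 7436 were lower at an adjusted p under 0.05.

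Mitochondrial proteins have 2 sources. Those encoded by the mitochondrial genome are made inside the organelle, and their RNAs were among the most membrane-enriched, together with the nuclear pseudogene Gm13340 (7.11 ± 0.20). Of 13 such protein-coding genes, 7 passed the filter and all 7 were membrane-enriched (median 6.55), while the other 6 had under 1 CPM in both fractions in these files. Whether the counting dropped reads that also match nuclear copies was not tested, and these levels and the mitochondrial share of the counts depend on it. mt-Co1, a subunit of cytochrome c oxidase, ranged over 17436 to 68166 CPM in membrane (median 46294) and 81.3 to 579 CPM in cytosol (median 371). Its lowest membrane value was that of the 40 min culture of replicate 4, and the next was 32269 CPM. The fractions were far apart in every culture (log2 fold change 7.42 ± 0.24 SE, adjusted p = 4.5e-17), but the size differed between replicate pairs, with 7.01 in replicates 1 and 2, 8.26 in replicates 3 and 4 and 6.83 in replicates 5 and 6. The mitochondrial ribosomal RNAs mt-Rnr1 and mt-Rnr2 had values of 6.14 ± 0.22 and 5.93 ± 0.23, and were higher in membrane in 16 of 16 cultures.

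Nuclear-encoded mitochondrial proteins are imported after or during synthesis in the cytosol. Carriers and translocases of the inner membrane had 0 of 38 genes called by edgeR in either direction (median -0.46), with 6 higher and 28 lower in membrane at an unadjusted p under 0.05 and 2 membrane-enriched by DESeq2. Of all 10659 genes, 7436 were lower at an adjusted p under 0.05, so being lower is not particular to these lists. Most carriers span the membrane several times. Outer membrane proteins had 0 of 17 called by edgeR and 1 by DESeq2, with 4 higher and 10 lower at an unadjusted p under 0.05, from -0.94 ± 0.043 for the pore Vdac1 to 0.66 ± 0.088 for the import receptor Tomm20. Vdac1 ranged over 342 to 687 CPM in membrane (median 449) and 734 to 1146 CPM in cytosol (median 886), without overlap. Matrix proteins had a median of -0.57 over 28 genes.

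The respiratory chain stood between these lists and the secretory ones. Of 49 nuclear-encoded subunits, 4 (8.16%) were membrane-enriched against 19% of all genes, and the median was -0.07, with 24 members above 0. With TMM scaling 13 and by DESeq2 12 passed. The 4 were Cox6a1, Cox4i1, Ndufa1 and Cox7c, the first 2 and the last being subunits of cytochrome c oxidase and Ndufa1 a subunit of complex I. Cox6a1 ranged over 291 to 587 CPM in membrane (median 417) and 39.2 to 65.9 CPM in cytosol (median 49.4). Its 8.19-fold difference (log2 fold change 3.02 ± 0.089 SE, adjusted p = 9.2e-18) was near the median of the secretory lists, 3.23. Cox4i1 ranged over 719.6 to 1351 CPM in membrane (median 967) and 192 to 278 CPM in cytosol (median 220.4), again without overlap (log2 fold change 2.07 ± 0.086 SE, adjusted p = 3e-15). Ndufa1 and Cox7c had values of 1.48 ± 0.075 and 1.09 ± 0.082. At the other end were Uqcrfs1, the Rieske protein of complex III (-0.80 ± 0.053), and Sdhc (-0.74 ± 0.059), a membrane anchor of complex II.

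**Figure D4:**
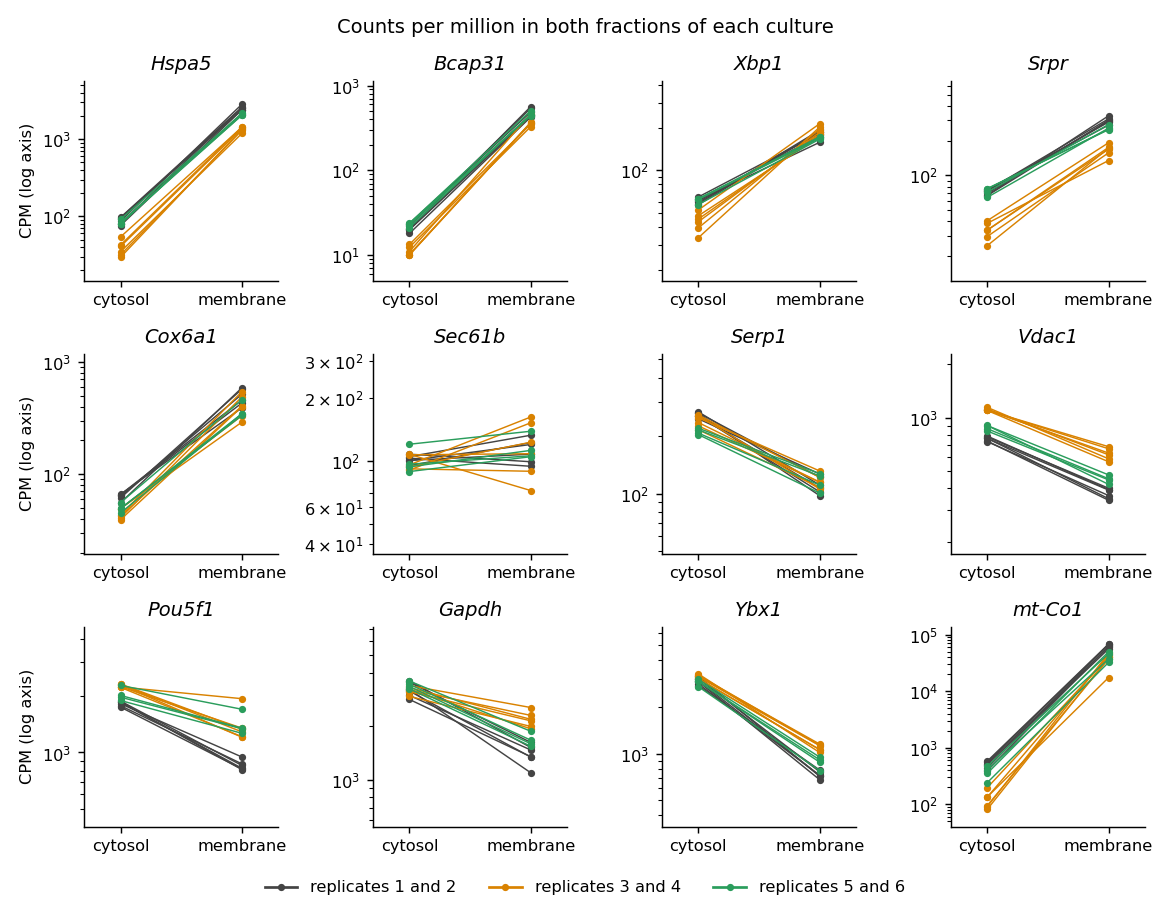
CPM in cytosol (left) and membrane (right) of 12 genes, on a log axis. Each line joins both fractions of a culture, 16 in all, coloured by replicate pair. Hspa5, Bcap31, Xbp1, Srpr, Cox6a1 and mt-Co1 rise in every culture, Serp1, Vdac1, Pou5f1, Gapdh and Ybx1 fall in every culture, and Sec61b is higher in membrane in 12 of 16.

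The remaining question was which genes without a hydrophobic feature were nevertheless membrane-enriched. Of the 80 such genes, the 10 highest with at least 20 CPM in membrane included Grn, Serpine2, Vcan, Pcsk6, Man2b2, Plod2, Cybc1, Mageh1 and Cgref1, between 4.53 and 2.89. Most of these are known secreted, lysosomal or ER proteins. Grn, the secreted precursor of the granulins, ranged over 96.4 to 595 CPM in membrane (median 416) and 1.92 to 40.0 CPM in cytosol (median 18.95), with a log2 fold change of 4.53 ± 0.16 (adjusted p = 2.1e-16). Serpine2, a secreted protease inhibitor, and Vcan, a matrix proteoglycan, had values of 4.15 ± 0.12 and 3.53 ± 0.098. Pcsk6 is a secreted proprotein convertase and Plod2 a collagen lysyl hydroxylase of the ER, and their values were 3.46 ± 0.097 and 2.94 ± 0.074. The windows scored in Grn and Serpine2 lay just under the limit, at hydropathies of 1.85 and 1.91.
Grn (chr11:102432993-102433025, plus strand, exon 2, codons 21 to 31): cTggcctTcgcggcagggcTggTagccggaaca
Serpine2 (chr1:79821491-79821523, minus strand, exon 2, codons 5 to 15): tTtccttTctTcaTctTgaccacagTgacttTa
They hold T as the middle base in 4 and 7 of 11 codons. Of the genes named, Grn, Serpine2, Vcan, Man2b2, Plod2 and Cybc1 lay between 1.84 and 1.94, and the others were lower, at 0.56 for Pcsk6, 0.10 for Cgref1 and -0.88 for Mageh1.

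Other genes of this class encode proteins that work at the ER without a signal sequence. Srpr, the alpha subunit of the receptor for the signal recognition particle, binds the ER through its membrane-embedded partner. It ranged over 135 to 328 CPM in membrane (median 254) and 24.6 to 76.9 CPM in cytosol (median 67.1). The 4.17-fold difference (log2 fold change 2.11 ± 0.075 SE, adjusted p = 2.2e-16) held in each replicate pair, at 2.07 in replicates 1 and 2, 2.33 in replicates 3 and 4 and 1.84 in replicates 5 and 6. Of the 14 tested genes for the soluble targeting machinery, Srpr was the lone membrane-enriched one. Srp9, a subunit of the signal recognition particle, was lower in membrane (-1.09 ± 0.068), a call that was lost by DESeq2 and with TMM scaling. Of 29 vesicle coat and tether genes, 2 were membrane-enriched. Sar1b, the GTPase that starts COPII coats at the ER, ranged over 66.1 to 111 CPM in membrane (median 87.5) and 19.8 to 28.9 CPM in cytosol (median 25.0), with a log2 fold change of 1.83 ± 0.093 (adjusted p = 1.1e-13), whereas its close paralog Sar1a had a value of 0.08 ± 0.08. Golga2, a Golgi tether, was at the limit, at 1.00 ± 0.16, or 0.98 without the 40 min culture of replicate 4, with 0.45 in replicates 1 and 2, 1.84 in replicates 3 and 4 and 0.66 in replicates 5 and 6. The counting of reads shared by the paralogs Sar1a and Sar1b is uncertain.

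Further members of the class were picked out after their values were seen. Herpud1 (2.18 ± 0.12) and Faf2 (2.01 ± 0.082) act in ER-associated degradation and sit in the ER membrane by a hairpin, and Ppp1r15b (2.05 ± 0.12) is a phosphatase subunit that reverses the stress-induced block of translation initiation. Vcl, Diaph1 and Anln encode vinculin, a formin and anillin, which bind the actin cytoskeleton and have no known signal sequence. Vcl ranged over 96.2 to 338 CPM in membrane (median 211) and 9.38 to 60.0 CPM in cytosol (median 39.6), with a log2 fold change of 2.82 ± 0.12 (adjusted p = 8.9e-15), and Diaph1 and Anln had values of 2.01 ± 0.16 and 1.68 ± 0.13. Akap12, a kinase-anchoring scaffold at the plasma membrane, ranged over 356 to 1163 CPM in membrane (median 788) and 106 to 354 CPM in cytosol (median 209), with a log2 fold change of 1.96 ± 0.091 (adjusted p = 2.2e-14). The 26 genes of the cytoskeleton list itself, mostly actins, tubulins and intermediate filaments, had none membrane-enriched by edgeR or DESeq2, 26 lower in membrane at an unadjusted p under 0.05 and a median of -0.61, with -0.64 ± 0.075 for Actb. Of all 10659 genes, 7436 were lower at an adjusted p under 0.05.

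The nuclear libraries of the same cultures were set beside these genes. The 80 membrane-enriched genes without a hydrophobic feature had a median log2 ratio of nuclear to cytosolic CPM of 1.45, the 1914 other membrane-enriched protein-coding genes one of 1.70, and all 6792 genes without a feature one of -0.11. Both ratios have the same cytosolic libraries as denominator, so a gene low in cytosol is high in both, and carry-over of nuclear RNA was not tested by them. Srpr had a mean of 150.3 CPM in the nucleus, between its means in membrane (239) and cytosol (57.3), as had Vcl (153, 227 and 35.03) and Hspa5 (665, 1992 and 68.5). In contrast, Golga2, Vegfa and Lama5 had their highest mean in the nucleus, with 65.4, 109 and 326 CPM. The 12 nuclear-retained RNAs of the list summed to 406 to 1040 CPM in membrane, 211 to 1187 CPM in cytosol and 1445 to 4419 CPM in the nucleus. Of the 9 tested, Kcnq1ot1 (2.12 ± 0.14) and Malat1 (1.19 ± 0.12) were membrane-enriched, a share of 22.2% against 19% of all genes, and 6 of the 9 lay below 0. Malat1 had log2 fold changes of 1.29 in replicates 1 and 2, 1.51 in replicates 3 and 4 and 0.56 in replicates 5 and 6. Across cultures the median log2 ratio of these 9 RNAs ran from -1.36 to -0.78 in replicates 1 and 2, from 0.38 to 1.47 in replicates 3 and 4 and from -0.49 to -0.34 in replicates 5 and 6.

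The ER stress response holds genes of both kinds. Of 15 tested, 10 were membrane-enriched, 1 was lower in membrane and 4 were not called. The sensors and membrane-bound transcription factors were membrane-enriched, from 1.45 for Ern1 (IRE1) to 3.35 for Eif2ak3 (PERK), with Atf6 at 3.02 ± 0.14. Eif2ak3 ranged over 37.8 to 116 CPM in membrane (median 76.6) and 1.88 to 17.7 CPM in cytosol (median 9.07), with a log2 fold change of 3.35 ± 0.17 (adjusted p = 8.3e-14). Xbp1 encodes a transcription factor, and its unspliced mRNA is known to be brought to the ER by a hydrophobic region in its first protein product, where IRE1 cuts it. Xbp1 ranged over 158 to 213 CPM in membrane (median 181) and 33.5 to 64.9 CPM in cytosol (median 57.9). All membrane libraries lay above all cytosolic ones (log2 fold change 1.76 ± 0.087 SE, adjusted p = 6.8e-14), and spliced and unspliced forms were counted together. The soluble effector Atf4, in contrast, ranged over 173 to 385 CPM in membrane (median 278) and 457 to 699 CPM in cytosol (median 517), and was lower in membrane (log2 fold change -1.01 ± 0.076 SE, adjusted p = 7.9e-11), a call that was lost by DESeq2 and with TMM scaling. Ddit3 (CHOP) and Nfe2l2, soluble factors too, had values of -0.94 ± 0.11 and -0.45 ± 0.06.

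Genes of the cytosol and the nucleus had a narrow range around the median gene. Over the lists of soluble proteins 622 genes were tested, 3 were membrane-enriched (Srpr, Sar1b and Golga2) and 25 were lower in membrane, of which 2 were so by DESeq2 and 1 with TMM scaling, with a median log2 fold change of -0.62 against -0.53 over all genes. Ribosomal proteins had a median of -0.56 over 78 genes, with 7 lower in membrane. The highest were Rps28 at 0.42 ± 0.095 and Rpl39 at 0.33 ± 0.067, with 69 and 51 residues. Rps2 ranged over 1137 to 2375 CPM in membrane (median 1539) and 3852 to 4945 CPM in cytosol (median 4295), without overlap (log2 fold change -1.46 ± 0.071 SE, adjusted p = 5.4e-14). Many ribosomal protein genes have near-identical pseudogenes, so their counts are uncertain. Glycolytic enzymes had a median of -0.65 over 18 genes, proteasome subunits -0.56 over 31, pluripotency factors -0.71 over 23 and zinc finger genes named Zfp -0.62 over 296. None of these 4 lists had a membrane-enriched gene by edgeR, and 2 zinc finger genes were by DESeq2. At an unadjusted p under 0.05, 5 zinc finger genes were higher in membrane, and no gene of the other 3 lists was. Pou5f1 (Oct4) ranged over 812 to 1925 CPM in membrane (median 1238) and 1737 to 2302 CPM in cytosol (median 1982), and was lower in membrane in 16 of 16 cultures without reaching the limit (log2 fold change -0.81 ± 0.071 SE, adjusted p = 9.2e-10).

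The genes lowest in membrane, with at least 20 CPM in cytosol and the same direction in every culture, were led by Ybx1. Ybx1, a Y-box protein that binds mRNA and controls its translation, ranged over 679 to 1150.0 CPM in membrane (median 896) and 2695 to 3254 CPM in cytosol (median 3014). The fractions did not overlap, and the difference was log2 fold change -1.75 ± 0.062 SE, adjusted p = 2.2e-16. Tpr, which forms the nuclear basket of the nuclear pore, ranged over 51.4 to 106 CPM in membrane (median 90.6) and 239 to 389.8 CPM in cytosol (median 287), with a log2 fold change of -1.75 ± 0.063 (adjusted p = 3e-16), and its mean in the nucleus was 849 CPM. Next came the RNA-binding proteins Rbms2 (-1.54 ± 0.07) and Raver1 (-1.46 ± 0.16), Rps2, Ftl1 (-1.44 ± 0.074), the ferritin light chain, with its pseudogene Ftl1-ps2 (-1.39 ± 0.12), the splicing kinase Prpf4b (-1.42 ± 0.11), Rpl12 (-1.38 ± 0.075) and Dph3 (-1.37 ± 0.082), which acts in diphthamide synthesis. The number of genes called lower in membrane rests on the scaling. It was 325 on the CPM scale, 11 with TMM scaling and 7 where fold changes were taken relative to the median gene, an alternative chosen after seeing the data. The corresponding numbers of membrane-enriched genes were 2030, 2215 and 2281.

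The ratio was compared between replicate pairs, which differ in labeling time and dose as described above. The test of this difference had an adjusted p under 0.05 for 7156 genes, and 1610 (15.1%) also had a spread of at least 1 between the 3 within-pair log2 fold changes. Most genes shifted together between pairs. The median log2 fold change was -0.77 in replicates 1 and 2, -0.22 in replicates 3 and 4 and -0.50 in replicates 5 and 6, and with TMM scaling 241 genes were called. At the shared time of 20 min this median was -0.72 and -0.64 in replicates 1 and 2 and -0.19 and -0.21 in replicates 3 and 4, and 1296 genes differed between these pairs. At 60 min it was -0.07 and -0.22 in replicates 3 and 4 and -0.49 in both replicates 5 and 6. The nuclear-retained RNAs were also highest in replicates 3 and 4, as given above, and their part in the difference was not tested. Across the 16 cultures the median log2 ratio of the ER lumen genes lay between 3.42 and 4.49, that of genes with 3 or more segments between 1.83 and 2.97, that of genes without a feature between -0.96 and -0.29 and that of the mitochondrial genome between 5.57 and 8.45. In every culture the medians of genes with 3 or more segments and of those with an N-terminal stretch only lay above that of genes without a feature. The median of the tail-segment class (-0.83 to -0.14) also lay above it in every culture, by less, although the ranges over cultures overlapped. Small spreads were seen for Ssr4 (1.94 in replicates 1 and 2, 2.05 in replicates 3 and 4 and 2.02 in replicates 5 and 6), Insig2, which retains cholesterol regulators in the ER (1.52 in replicates 1 and 2, 1.44 in replicates 3 and 4 and 1.49 in replicates 5 and 6), and Igfbp2 (4.54 in replicates 1 and 2, 4.74 in replicates 3 and 4 and 4.65 in replicates 5 and 6). Wide spreads were seen for Eif2ak3 (2.89 in replicates 1 and 2, 4.13 in replicates 3 and 4 and 3.02 in replicates 5 and 6) and Grn (4.00 in replicates 1 and 2, 5.29 in replicates 3 and 4 and 4.38 in replicates 5 and 6).

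**Figure D5:**
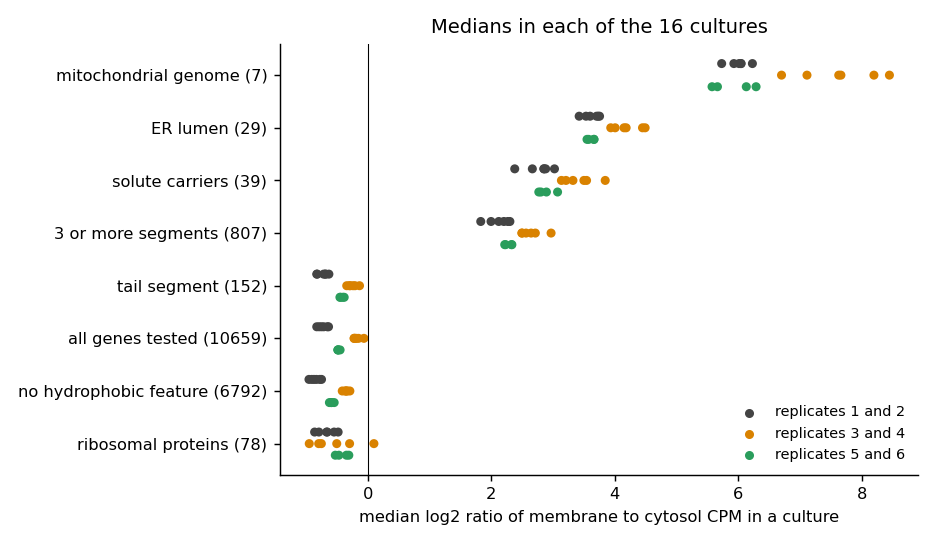
Median log2 ratio of membrane to cytosol CPM (pseudocount 0.5 CPM) over the genes of 8 sets in each of the 16 cultures, coloured by replicate pair, with the number of genes in brackets. The medians of all genes tested lie between -0.83 and -0.07, and those of genes with 3 or more segments between 1.83 and 2.97.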

How the data were processed

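RNA of fractionated mESCs was sequenced from paired-end, strand-specific, poly(A)-selected libraries. The authors aligned reads to GRCm38 with STAR 2.7.6 and counted them per gene with HTSeq 0.11.1 (GENCODE M14 per the study's methods), and deposited raw read counts without normalization. Deposited files of T-to-C conversions were not used here. Lines that name no gene were left out.

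From the counts, genes with a mean of at least 5 CPM in either fraction were fitted with edgeR 4.0.16 (R 4.3.3) quasi-likelihood tests, with the culture as a block and total counts as library sizes, and p-values were adjusted by Benjamini-Hochberg over 10659 genes. The fit was tested on simulated data, where 100 of 100 genes changed by 1.5 (log2) were called. Of those changed by 0.7, which lies under the limit of 1, 0 of 100 were called. An adjusted p under 0.05 was reached by all 200 changed genes and by 15 unchanged ones. The simulated cultures were independent and few genes were changed, unlike in these data. Both fractions of a culture come from the same cells, and their deviations from the fraction means correlated at 0.52 to 0.85 in the 16 cultures, although the best match was the same culture in 6 of 16 and otherwise another culture. Cultures of the same replicate share a passage, so the 16 pairs are not fully independent, and the standard errors and p-values may be too small. Counts summed per replicate (6 pairs) gave 2030 membrane-enriched genes and 307 lower in membrane. No libraries agreed within sampling noise (chi-square per gene of at least 5.79).

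The members and gene lists were chosen with earlier results of these data known, and lists and classes are described by counts and medians without a test. The name pattern of the ribosomal protein list was corrected once the gene names in the tables were known, ahead of any fit. Named genes were the 15 most membrane-enriched and the 10 lowest with at least 20 CPM in the higher fraction and the same direction in every culture, the extremes of each list with up to 4 members including those on the other side of 0, the 10 extreme genes against their hydrophobic class, and Hspa5, Xbp1, Actb, Gapdh, Pou5f1, Malat1 and the blot markers. Other names were chosen after their values were seen, as stated there, and a few items are not reported here. Symbols, coding sequences and coordinates came from GENCODE M21 (GRCm38), matched by identifier for 51633 of 51826 genes. A RefSeq protein table had been planned for the hydrophobic classes, and coding sequences were translated in its place. Python 3.11.15 was used. Alternatives were TMM scaling, library sizes without mitochondrial genes, other filters, DESeq2 1.42.0, no block, leaving out each replicate, each replicate pair alone and the 120 min libraries of replicates 3 and 4.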

Additional observations from a re-analysis of the deposited data

Results flagged for a closer look

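The results listed here are those whose ratio of membrane to cytosol differed between the 3 replicate pairs by the interaction test in edgeR (adjusted p under 0.05 and a spread of at least 1 in log2 fold change), which 1610 of 10659 genes did, and 241 with TMM scaling. The medians of all genes differed between the pairs, at -0.77, -0.22 and -0.50. The pairs also differ in labeling time, and its part in these differences was not tested. With the 20 min cultures of replicates 1 to 4 alone, a subset chosen after seeing the data, 1296 genes differed on the CPM scale. The spread of the mitochondrial genes was 1.43 for mt-Co1, 1.61 for mt-Cytb, 1.78 for mt-Nd1, 1.76 for mt-Nd2, 1.8 for mt-Nd4, 2.15 for mt-Nd5, 1.22 for mt-Rnr1 and 1.28 for mt-Rnr2, and it was 1.48 for the pseudogene Gm13340, whose log2 fold change of 7.11 ± 0.20 lay among theirs. In each of these genes the value was highest in replicates 3 and 4.

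Among membrane and secretory genes and their relatives the spread was 1.22 for Cybc1, 1.24 for Eif2ak3, 1.3 for Grn, 1.31 for Lama5, 1.02 for Tmem43, 1.26 for Vegfa and 1.39 for Golga2, also highest in replicates 3 and 4. Among nuclear-encoded mitochondrial genes it was 1.34 for Lonp1, 1.29 for Polrmt and 1.43 for Slc25a22. Among genes of the nucleus and the cytosol it was 1.06 for Eif4g1, 1.88 for Kmt2b, 2.63 for Kmt2d, 1.12 for Mki67, 1.23 for Myc and 1.33 for Tcf7l1, and among noncoding RNAs 1.31 for Snhg14, 2.32 for Snhg20 and 1.45 for Tsix. The log2 fold change was highest in replicates 3 and 4 in every gene listed here. The nuclear-retained RNAs moved the same way, with culture medians of -1.36 to -0.78 in replicates 1 and 2, 0.38 to 1.47 in replicates 3 and 4 and -0.49 to -0.34 in replicates 5 and 6, and chromatin regulators had medians of -1.11 to -0.75, -0.77 to 0.16 and -0.84 to -0.72, the lowest value in replicates 3 and 4 being that of the 40 min culture of replicate 4. The part of nuclear RNA in these spreads was not tested. Eif4g1, Kmt2b, Lonp1, Myc, Polrmt and Snhg14 had values on both sides of 0, as had Kmt2d, a histone methyltransferase that was called lower in membrane, with log2 fold changes of -2.36 in replicates 1 and 2, 0.27 in replicates 3 and 4 and -1.55 in replicates 5 and 6, and its mean was 186 CPM in the nucleus against 25.8 in membrane and 73.5 in cytosol.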

How the results depend on the processing

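The number of membrane-enriched genes, 2030, stayed between 1783 and 2683 under every alternative except the fit without a filter on low counts (3649), and 1991 to 2060 when a replicate was left out. The number lower in membrane, 325, did not. It was 11 with TMM scaling, 15 by DESeq2 and 56 with library sizes without mitochondrial genes. It was 7 relative to the median gene (chosen after seeing the data) and 6 at a fold change of at least 3. Other filters also changed the number of genes tested. With filterByExpr 14506 genes were tested, of which 2683 were membrane-enriched and 498 lower. Without a filter 31992 were tested, with 3649 and 951. These counts are not on the same base as those of the 10659 genes. Fitted alone, replicates 1 and 2 gave 2646, replicates 3 and 4 gave 135, and replicates 5 and 6 gave 592. It was 179 to 628 when a replicate was left out, with 179 without replicate 1, 628 without replicate 3 and 571 without replicate 4. The genes that differed between replicate pairs fell from 1610 to 241 with TMM scaling and numbered 968 to 2329 when a replicate was left out, with 968 without replicate 3. Further alternatives chosen after seeing the data were the 20 min cultures alone, with 1296 such genes, and leaving out the 40 min culture of replicate 4, with 2024 genes membrane-enriched, 346 lower in membrane and 1939 that differed between pairs. Scaling shifts the median gene by construction, from -0.53 to -0.12 with TMM and -0.16 by DESeq2, and the causes were otherwise not tested. Without the replicate block the counts were 2016, 329 and 1536, and 264 of the 325 genes lower in membrane were shared. At a hydropathy limit of 1.8 the tail-segment class was membrane-enriched in 21.2% in place of 12.5%, and so lay above the 19% of all genes and not below it. The class with 1 or 2 segments was so in 60.3% in place of 41.9%. Of 2812 values of the 148 genes chosen by the naming rule under alternatives, 2637 kept their side of the limits, 99 no longer passed, 75 newly passed and 1 reversed, Kmt2d, which was 0.27 within replicates 3 and 4. No fold change is given for genes with a mean under 5 CPM in both fractions. Some named genes had few reads in their lower fraction, such as Gm13340 with a mean of 0.37 CPM in cytosol. The size of such fold changes is uncertain.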

Other observations

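Of 84 tested lincRNA genes, 5 were membrane-enriched and 5 lower in membrane, with a median log2 fold change of -0.53, and of 30 antisense genes 3 and 2 were. Host genes of small nucleolar RNAs had 0 of 13 membrane-enriched by edgeR or DESeq2 and 2 lower in membrane, 12 were lower at an unadjusted p under 0.05, and the median was -0.84. Of all 10659 genes, 7436 were lower at an adjusted p under 0.05. Among processed pseudogenes, 3 of 143 were membrane-enriched, of which Atp6v0c-ps2 (3.87 ± 0.10) and Tdgf1-ps1 (2.8 ± 0.073) carry the names of membrane-enriched parent genes, with Tdgf1 itself at 2.91 ± 0.086, and reads that fit both copies cannot be assigned with certainty. Ifi30, a lysosomal thiol reductase that is annotated here as a processed transcript, had a log2 fold change of 4.18 ± 0.11.

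Among proteins with an N-terminal stretch and no segment, the membrane-enriched ones were 10 of 26 of up to 100 residues (38.5%, median 0.66). The counts were 33 of 63 of over 100 to 200 (52.4%, median 1.22) and 149 of 214 of over 200 to 400 (69.6%, median 2.27). They were 188 of 246 of over 400 to 800 (76.4%, median 2.61) and 31 of 49 of over 800 to 1600 (63.3%, median 2.68). The difference between these length classes was not tested. The median of proteins without a feature was -0.37 at up to 100 residues against -0.66 at over 200 to 400.

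Chromatin regulators had a median of -0.65 over 40 genes, replication genes -0.66 over 27 and translation factors -0.76 over 41, with no membrane-enriched gene by edgeR or DESeq2 and with 0, 1 and 2 higher in membrane at an unadjusted p under 0.05. Pabpc1, which binds poly(A) tails, was one of the latter (0.58 ± 0.057), with 1652 to 3254 CPM in membrane (median 2602) and 1291 to 2139 CPM in cytosol (median 1541), and the ranges overlapped.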
